A study of Mus musculus with 18 samples.

Results

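Suv39h1-deficient lymphoma cells after 5 days of adriamycin were compared with untreated cells of the same lymphomas, on 6 of the 18 arrays of the series. The arrays were chosen by their labels: the 3 treated with ADR alone for 5 days and the 3 untreated, paired by the number of the lymphoma. Every group used here came from primary Eµ-myc;Suv39h1-null lymphoma cells on a C57/Bl6 background, taken from lymph nodes and transduced by retrovirus with Suv39h1-ERT2 and Bcl2. In Eµ-myc mice an immunoglobulin heavy-chain enhancer drives Myc in B cells. Suv39h1-ERT2 is a fusion protein that 4-hydroxytamoxifen (4-OHT) turns on, and neither the untreated cells nor the cells given ADR alone received 4-OHT. Untreated (n = 3) and ADR 5 d (n = 3) each hold lymphomas 4146, 4936 and 5043. ADR+4-OHT 5 d (n = 3) and the ADR outgrowth (n = 2, lymphomas 4146 and 4936, a further 14 days without the drug) served as points of reference. Each lymphoma gave 1 array per group, and the number of arrays limits the precision. Errors and p-values come from 1 fit of all 17 arrays with values in 6 groups. They rest on a spread of each gene pooled over these groups, not on the 3 differences alone.

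Adriamycin, also called doxorubicin, poisons topoisomerase II and breaks DNA. Cells that cannot die because Bcl2 blocks apoptosis can respond to such damage with a lasting arrest called senescence. SUV39H1 places the repressive methyl mark on lysine of histone H3 that packs heterochromatin, and this mark is known for silencing proliferation genes in senescent lymphoma cells. Senescent cells are also known for secreting inflammatory factors and for changes in their lysosomes and metabolism.

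Values are log2 RMA signals, so a difference of 1 unit is a doubling. In the deposited values each probe set had the same median in every lymphoma. Ranges across lymphomas, and whether groups overlap, therefore depend on that. The B cell label was checked first. Of the 32 B cell identity and receptor genes on the array, 27 to 29 reached 4.86, the median of all deposited values, on each of the 6 arrays, and their mean level was 7.81 to 7.88 in untreated and 7.62 to 8.04 in ADR-treated cells. Cd79b, a signalling chain of the B cell receptor, was at 10.54 to 12.09. Pax5, the factor that holds B cell identity, was at 5.63 to 6.35. Markers of T and NK cells had mean levels of 4.34 to 4.61 and 4.66 to 4.70 in the untreated and treated groups, and endothelial markers had 4.38 to 4.40 and 4.33 to 4.43.

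The ADR array of lymphoma 4936 stood apart from the other 5. Its score on the first principal component of all 17 arrays was 66.81, and those of the other 5 lay below 0. The big and small outgrowth arrays of lymphoma 5043, which are in the fit but not in this comparison, scored 66.32 and 58.47. On the ADR array of 4936, Xist, a non-coding RNA that silences an X chromosome in female cells, was at 11.97, against 5.65 to 6.73 on the other 5. Afp, a fetal liver protein, was at 14.72 there and at 4.47 to 6.71 on the others, and Cdkn2a, which encodes p16 and p19ARF, was at 13.87 against 4.35 to 6.08. Bcl2, one of the transduced genes, was at 5.61 on this array and at 8.31 to 9.52 on the other 5. Whether the library matched its label was not tested, and results are given by lymphoma or with and without 4936 where that array weighs on them most. Means over the 3 lymphomas include it. The differences of single genes had an SD of 1.10 in 4936, 0.44 in 4146 and 0.36 in 5043. As a sign of RNA quality, the signal of the 3′ minus that of the 5′ control probe set of Actb was lower after ADR than before in all 3 lymphomas: 1.08 against 1.39 in 4146, 0.56 against 1.65 in 4936 and 1.17 against 1.41 in 5043. The same measure for Gapdh went from 0.51, 0.48 and 0.54 to 0.40, 0.50 and 0.37, and for Tfrc from 1.56, 2.16 and 2.19 to 1.60, 1.98 and 1.91, so both had 1 lymphoma in which it was higher after ADR. The part of RNA quality in the results was not tested.

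No gene passed over all 11897 genes tested (limma, Benjamini-Hochberg adjusted p under 0.05, 0% called), and the lowest adjusted p was 0.182. An unadjusted p under 0.05 was reached by 1348 genes, 709 with a higher level after ADR (5.96% of those tested) and 639 with a lower one (5.37%). The difference had the same sign in all 3 lymphomas for 41.3% of genes, 21.8% higher and 19.5% lower. The values of the 2 groups did not overlap for 11.8% of genes on the higher side and 10.4% on the lower side. Across genes, which are not independent replicates, the differences of lymphomas 4146 and 5043 correlated with r = 0.40, and each with that of 4936 by 0.40 and 0.38. Of the 11897 genes tested, 42 higher and 10 lower genes had a difference of at least 2-fold in all 3 lymphomas. Several of the higher ones, such as Efemp1, Cpe and Cav1, had all 3 untreated values under 4.86. On the lower side H1f4 had all 3 treated values under it. The size of such differences depends on low values. All gene-level statements that follow are therefore differences with their errors, none of which passed over all genes.

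**Figure D1:**
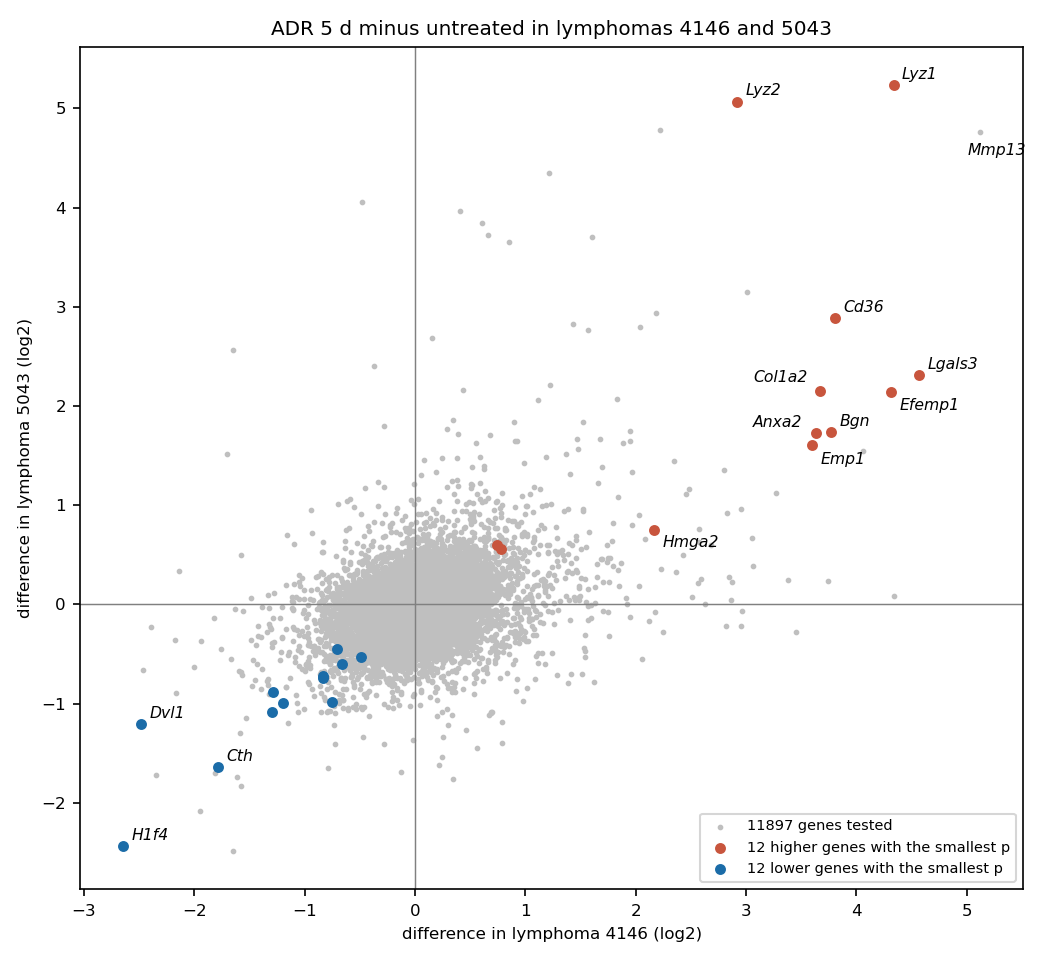
Differences between ADR 5 d and untreated cells for the 11897 genes tested, in log2 units, in lymphoma 4146 (horizontal axis) and lymphoma 5043 (vertical axis); red and blue points are the 12 higher and 12 lower genes with the smallest p. H1f4, Cth and Dvl1 lie at the lower left and Lyz1, Lyz2, Cd36, Mmp13 and matrix genes at the upper right, away from the cloud of the other genes.

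Genes of phagocytes, of the extracellular matrix and of secreted proteases were among those with large shared differences upwards. Lyz2, lysozyme of macrophages and granulocytes, was at 4.75, 5.51 and 2.79 in untreated lymphomas 4146, 4936 and 5043 and at 7.67, 14.49 and 7.85 after ADR. The groups did not overlap, and the difference was 5.66 ± 1.15 (SE of the pooled fit, n = 3 lymphomas, adjusted p = 0.239). Lyz2 differed by 3.99 without lymphoma 4936 and by 4.93 with low values set to 4.86. Its neighbour Lyz1 was at 4.18, 4.83 and 3.67 before and 8.52, 15.31 and 8.90 after ADR, and its probe set may also bind the closely related Lyz2 transcript. The 3 untreated values lay under 4.86, and with low values set to 4.86 the Lyz1 difference was 6.06. Cd36, a scavenger receptor that takes up lipids, was at 4.29, 5.95 and 5.21 in untreated and 8.09, 11.02 and 8.09 in treated cells. That gave 3.92 ± 0.69 (adjusted p = 0.208), about 15.1-fold, and 3.34 without 4936. The 3 detected probe sets of Cd36 ranged from 1.46 to 3.92. Mmp13, a collagenase, had differences of 5.12, 5.35 and 4.76.

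Among all 24 macrophage and myeloid markers on the array, 10 were higher with an unadjusted p under 0.05 and none lower in a fit of all 18194 genes with no filter on low values, in which 5.14% of genes were higher and 4.73% lower. Their median difference was 0.73. Without lymphoma 4936 the count was 7 and the median 0.64, in a fit in which 1.98% of genes were higher and 1.89% lower. With the filter on low values, the markers called both with and without 4936 were Adgre1, Csf1r, Lyz1, Lyz2 and Cd36. They include the dim Adgre1, described below, and Lyz1, whose probe set may also bind Lyz2. The number of the 24 markers at or above 4.86 went from 10, 13 and 10 to 14, 16 and 15 in lymphomas 4146, 4936 and 5043, and their mean level from 4.76, 5.08 and 4.57 to 5.67, 7.52 and 5.66. Adgre1, which encodes F4/80, the defining surface protein of mouse macrophages, was under 4.86 in both groups of lymphomas 4146 and 5043 and went from 4.70 to 9.48 in 4936. Csf1r, the receptor for macrophage colony-stimulating factor, was at 5.17, 5.70 and 4.35 before and 5.76, 9.48 and 5.84 after ADR. Itgam, the integrin chain CD11b, had differences of 1.97, 4.16 and 1.33. Cd68, a lysosomal glycoprotein of phagocytes, had 0.97, 2.19 and 0.71. Tyrobp and Fcer1g, adaptors of activating immune receptors, had differences of 2.44 ± 1.07 and 1.69 ± 0.81. In bulk RNA, a different share of cells of a type and a different amount of RNA per cell cannot be told apart.

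**Figure D2:**
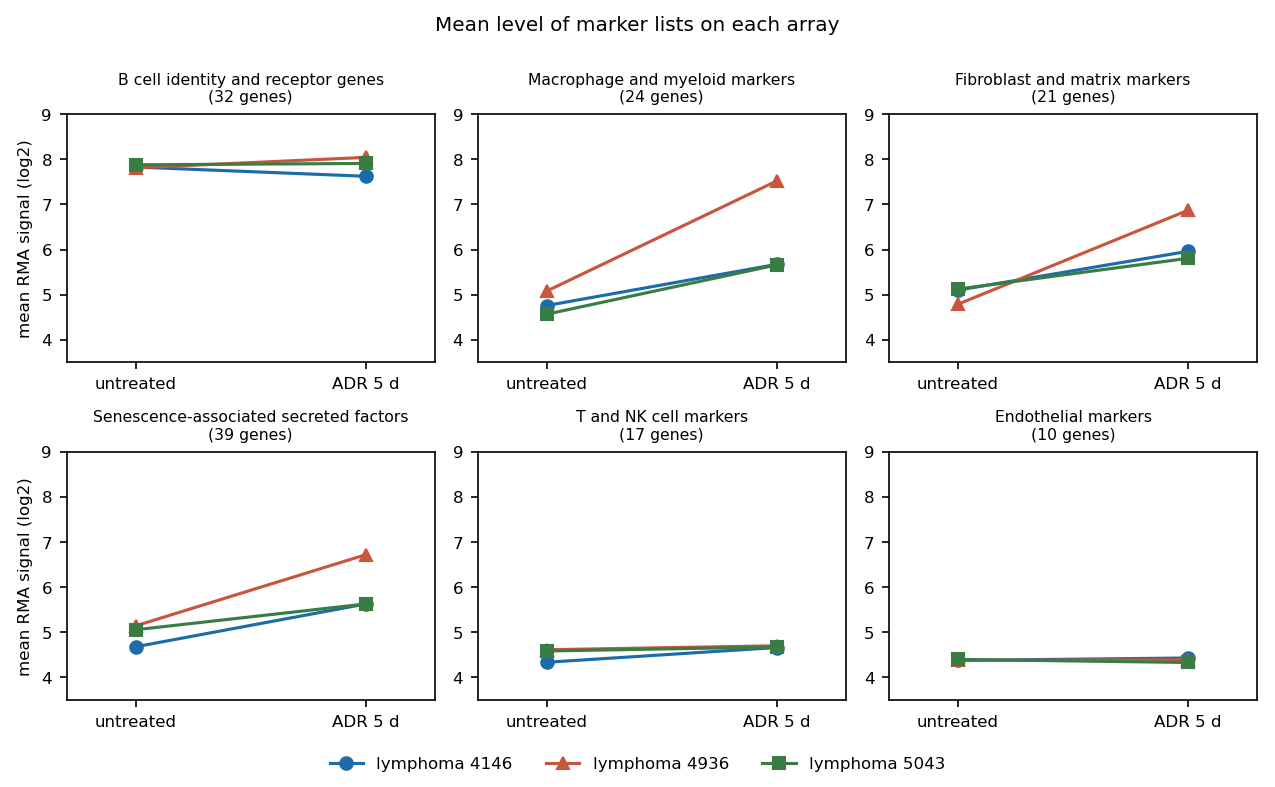
Mean RMA signal in log2 units (vertical axis) over all genes of 6 marker lists on each of the 6 arrays, with untreated and ADR 5 d cells of 1 lymphoma joined by a line. Macrophage and myeloid markers go from 4.57 to 5.08 up to 5.66 to 7.52, with lymphoma 4936 highest, while B cell, T and NK cell and endothelial lists stay near their untreated level.

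Matrix and mesenchymal genes formed another group of large differences. Col1a2, a chain of type I collagen, was at 4.89, 4.75 and 6.25 in untreated and 8.56, 10.51 and 8.41 in ADR-treated lymphomas 4146, 4936 and 5043. Every treated value lay above every untreated one, with a difference of 3.86 ± 0.76 (adjusted p = 0.239). Bgn, the matrix proteoglycan biglycan, was at 5.07, 4.79 and 6.78 before and 8.84, 10.13 and 8.51 after, a difference of 3.62 ± 0.65. Its 3 detected probe sets ranged from 1.61 to 3.62. Of 21 fibroblast and matrix markers on the array, 9 were higher with an unadjusted p under 0.05 and none lower. That was in the fit without a filter, with 5.14% of all genes higher and 4.73% lower. The list median was 0.48. Without lymphoma 4936 the count was 6 and the median 0.25, with 1.98% of all genes higher. The mean level of all 21 went from 5.10, 4.79 and 5.12 to 5.96, 6.87 and 5.81 in lymphomas 4146, 4936 and 5043. The 9 included Col3a1, Dcn, Fn1, Sparc and Acta2. Col1a1, the partner chain of Col1a2, stayed between 4.15 and 4.92 on all 6 arrays, and Pdgfrb, a receptor that marks fibroblasts and pericytes, between 3.98 and 4.44. The markers of this list thus differed among themselves.

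Further genes shared that course. Lgals3, the lectin galectin-3, was at 3.05, 3.44 and 5.63 in untreated and 7.62, 8.86 and 7.95 in treated cells. The difference was 4.10, or 3.03 with low values set to 4.86. Anxa2, a membrane-binding annexin, had differences of 3.63, 4.54 and 1.73, and Efemp1, a fibulin of elastic fibres, had 4.31, 4.69 and 2.15, with all untreated values under 4.86. With low values set to that level the mean differences were 2.54 for Anxa2 and 2.02 for Efemp1. Hmga2, an architectural chromatin protein linked to senescence, was at 4.71, 4.69 and 4.81 before and 6.88, 7.75 and 5.56 after ADR, or 1.87 higher with low values set to 4.86. Emp1, an epithelial membrane protein, had 3.60, 4.01 and 1.61 on its chosen probe set, but its 2 detected probe sets ranged from -0.34 to 3.07, and with low values at 4.86 the difference was 1.88. Of 31 annexins, S100 proteins and galectins, a list chosen after values were seen, 6 were higher with an unadjusted p under 0.05 and none lower. In that unfiltered fit 5.14% of all genes were higher and 4.73% lower.

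Several matrix genes lay lower when 4-OHT was given with ADR than with ADR alone. Col1a2 was at 4.79, 7.13 and 6.74 with ADR+4-OHT, 2.94 ± 0.76 below ADR alone, and Lgals3 was at 4.89, 6.08 and 5.77, 2.56 ± 0.81 below. Bgn, Anxa2 and Efemp1 lay 2.35, 2.34 and 2.41 below ADR alone. Cd36 was at 9.52, 9.38 and 9.78 with both compounds and 8.09, 11.02 and 8.09 with ADR alone in lymphomas 4146, 4936 and 5043. Its mean lay 0.49 ± 0.69 above ADR alone, with 4936 lower and 4146 and 5043 higher. Lyz2 was at 10.17, 12.55 and 7.93 with both compounds and 7.67, 14.49 and 7.85 with ADR alone, a mean difference of 0.21 ± 1.15. These means include the high ADR array of 4936. Of all 21 fibroblast and matrix markers, 6 were lower with 4-OHT at an unadjusted p under 0.05 and none higher in the fit without a filter on low values (6.39% of genes lower, 4.23% higher), and of the 24 macrophage markers 1 was lower. None passed over all genes tested in that comparison (0%). In the ADR outgrowth Col1a2 was at 5.63 and 5.52, and 10 of the 21 matrix markers and 2 of the 24 macrophage markers lay lower than at 5 days in the unfiltered fit (2.65% of genes lower, 1.8% higher). Among the 11897 genes tested these shares were 1.92% and 1.97%, with 0% after adjustment. The comparisons share the ADR 5 d arrays, so a high value on those arrays enters each of them, and whether the lysozyme and matrix genes differ from each other was not tested.

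**Figure D3:**
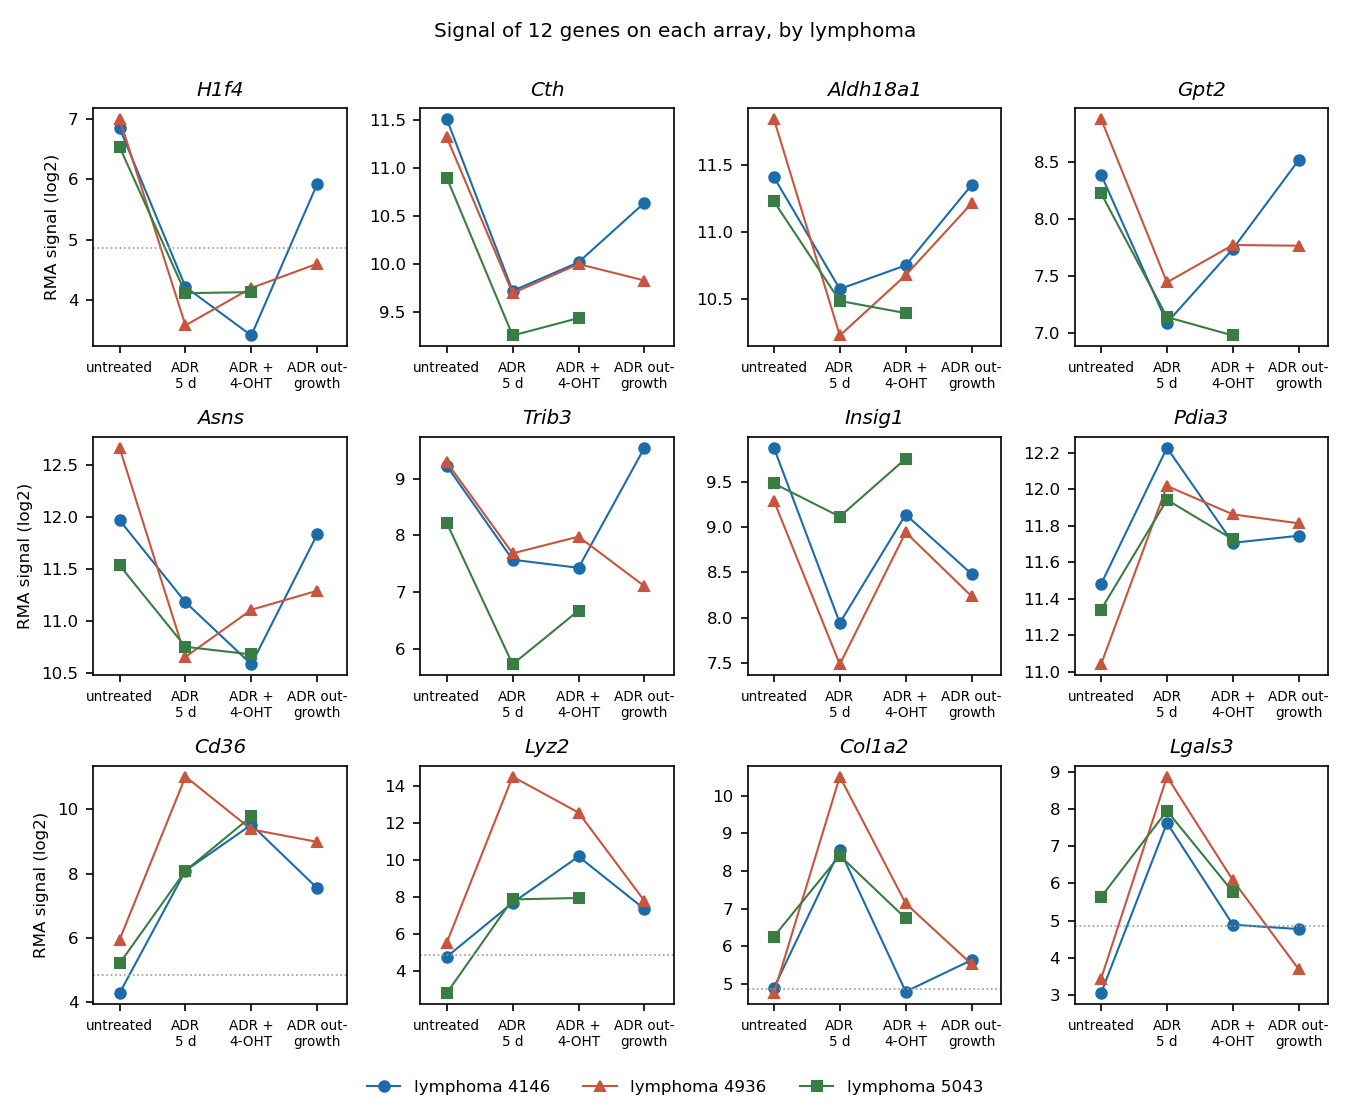
RMA signal in log2 units (vertical axis) of 12 genes in untreated, ADR 5 d, ADR+4-OHT 5 d and ADR outgrowth cells, with a line and symbol for each lymphoma and a dotted line at 4.86, where it falls in the range. H1f4, Cth, Gpt2 and Trib3 are lower after ADR in all 3 lymphomas, while Cd36, Lyz2, Col1a2 and Lgals3 are higher, and Col1a2 and Lgals3 lie lower again with 4-OHT.

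Among secreted factors of the senescent cell, 10 of 39 on the array were higher with an unadjusted p under 0.05 and none lower. That was in the unfiltered fit, with 5.14% of all genes higher and 4.73% lower. The list median was 0.64. Without lymphoma 4936 the count was 6 and the median 0.29, with 1.98% of all genes higher. The mean level of all 39 went from 4.68, 5.14 and 5.06 to 5.63, 6.72 and 5.63 in lymphomas 4146, 4936 and 5043. Cxcl2, a neutrophil chemokine, was at 3.18, 5.48 and 2.59 in untreated and 6.20, 13.23 and 5.73 in treated cells, a difference of 4.63 ± 1.46. Mmp12, macrophage elastase, had differences of 1.22, 3.67 and 4.35, with a mean of 3.08, or 2.42 with low values set to that level. Ccl3, a chemokine for monocytes, had 1.57, 6.31 and 2.77. Ccl2, the monocyte chemoattractant, had 1.71, 2.74 and 0.22 and lay 1.47 ± 0.40 lower with 4-OHT than without it. Timp2, an inhibitor of matrix proteases, had 3.27, 3.38 and 1.13, but the mean differences of its 4 detected probe sets ranged from 0.27 to 2.59. Il1b had 2.23, 3.41 and 0.36, and Il6, an interleukin often used to mark this programme, went from 1.68, 3.71 and 3.99 to 3.51, 4.27 and 6.06. Tnf had a difference of 0.83 ± 0.62. The macrophage and fibroblast marker levels given above moved with these factors on the same arrays, and their part in the result was not tested.

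Regulators of cell cycle arrest had differences of both signs. Cdkn1a, the p21 inhibitor and a p53 target, was already at 11.56, 12.26 and 12.56 in untreated cells and had differences of 1.07, -1.68 and -0.14. Cdkn2a had differences of 0.37, 9.51 and -0.47, so its high mean came from lymphoma 4936 alone. Cdkn2b, the neighbouring p15 inhibitor, had 1.11, 5.19 and 0.09. Myc differed by -0.11, -0.88 and 0.12. Of the 28 p53 target genes tested, 2 were higher (Xpc, a DNA damage sensor, and Tigar) and 1 lower (Rrm2b) at an unadjusted p under 0.05. Among all genes tested 5.96% were higher and 5.37% lower. The median of the p53 targets was 0.44 in 4146, -0.39 in 4936 and 0.16 in 5043. Mdm2, the feedback inhibitor of p53, had 0.50, -0.38 and -0.17. Suv39h1 and Trp53 were not analysed here, and Suv39h2, the related methyltransferase, was at 7.37 to 7.57 before and 7.19 to 7.27 after ADR.

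Mitosis genes lay mostly lower. The difference was below 0 in all 3 lymphomas for 31 of 45 mitosis and kinetochore genes and above 0 in all 3 for 0. Among all genes tested these shares were 19.5% and 21.8%. The 2 groups did not overlap for 25 of the 45, all on the lower side, against 10.4% of all genes. The list median was -0.46, with -0.12 in lymphoma 4146, -0.68 in 4936 and -0.51 in 5043, against 0.02 for all genes tested. At an unadjusted p under 0.05, 6 were lower and none higher (5.37% and 5.96% of all genes tested). Mki67, the Ki-67 antigen of cycling cells, was at 11.76, 12.19 and 12.37 before and 10.80, 10.46 and 11.56 after ADR, a difference of -1.16 ± 0.37 (adjusted p = 0.335). Smc4, a condensin subunit, differed by -0.44, -1.03 and -0.58, and Cenpf, a kinetochore protein, by -0.69, -0.52 and -0.90. None of the 6 kept an unadjusted p under 0.05 without lymphoma 4936. Top2a, the topoisomerase that ADR poisons, was at 12.04, 12.78 and 12.64 before and 11.81, 11.67 and 11.99 after treatment.

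The DNA replication list had a median of -0.21, with 19 of 44 genes lower in all 3 lymphomas (19.5% of all genes). At an unadjusted p under 0.05, 3 were lower (Pold1, Pole and Cdc7), near the 5.37% of all genes, and 1 was higher (Orc2). Without 4936 1 gene, Pold1, was lower. Pold1, the catalytic subunit of polymerase delta, was at 10.37, 10.84 and 10.93 before and 9.81, 9.47 and 9.99 after ADR, without overlap. Among homologous recombination and Fanconi genes, 7 of 27 were lower and none higher at an unadjusted p under 0.05, with a median of -0.53. The shares of all genes tested were 5.37% lower and 5.96% higher. In all 3 lymphomas 16 of the 27 were lower and 0 higher (19.5% and 21.8% of all genes). Brca2, a breast cancer susceptibility gene of DNA repair, differed by -0.80, -0.97 and -0.85, and Fanca by -0.62, -0.76 and -0.63. Rad51b had -0.35, -2.60 and -0.60. Without 4936, 1 gene of the list, Rad51b, was lower at an unadjusted p under 0.05 (1.96% of all genes lower, 2.12% higher), and the list median was -0.23. The ADR+4-OHT arrays lay lower still: 29 of 45 mitosis, 27 of 44 replication and 12 of 27 recombination genes were lower than with ADR alone at an unadjusted p under 0.05 (7.6% of all genes tested were lower and 4.93% higher).

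The linker histone gene H1f4 had the smallest p of all genes. It was at 6.85, 7.0 and 6.54 in untreated and 4.21, 3.57 and 4.11 in treated lymphomas 4146, 4936 and 5043, a difference of -2.84 ± 0.40 (adjusted p = 0.182). All 3 treated values lay under 4.86, and with them set to that level the difference was -1.94. With 4-OHT the gene was at 3.40, 4.20 and 4.13, and in the ADR outgrowth at 5.93 and 4.60. Of the 7 clustered histone genes tested, 3 were lower at an unadjusted p under 0.05 (5.37% of all genes): H1f4, H3c4 and H2bc21. H3c4, a replication-dependent histone H3, differed by -1.15, -1.58 and -1.19. H1f2, a further linker histone, had 0.32, -1.94 and -0.51, and H1f10 had -0.12, -0.01 and 0.38.

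Many genes that make, load and import amino acids lay lower. In all 3 lymphomas 14 of 21 synthesis enzymes, 13 of 19 tRNA synthetases and 5 of 11 transporters were lower, against 19.5% of all genes. Higher in all 3 were 2, 1 and 2, against 21.8% of all genes. These 3 lists were assembled after values were seen. Several of the genes are known targets of ATF4, a transcription factor made when amino acids are short or the endoplasmic reticulum is stressed. Cth, which makes cysteine, was at 11.51, 11.32 and 10.90 in untreated and 9.72, 9.70 and 9.26 in treated cells. The difference of -1.68 ± 0.26 (adjusted p = 0.204) was -1.79, -1.62 and -1.64 by lymphoma, and lymphoma 4936 did not stand apart here. Aldh18a1, the first enzyme of proline synthesis, was at 11.41, 11.85 and 11.23 before and 10.58, 10.23 and 10.49 after. Gpt2, an alanine aminotransferase of mitochondria, differed by -1.30, -1.43 and -1.08. Asns, asparagine synthetase, was at 11.97, 12.67 and 11.54 before and 11.18, 10.66 and 10.75 after ADR. In the serine and one-carbon branch, Psat1, Psph, Shmt2 and Mthfd2 differed by -0.60, -0.67, -0.84 and -0.60 on average, and Phgdh, the entry enzyme, by -0.27 ± 0.15.

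Of the 21 synthesis and one-carbon enzymes tested, 9 were lower and none higher at an unadjusted p under 0.05. Among all genes tested 5.37% were lower and 5.96% higher. Of 19 cytosolic aminoacyl-tRNA synthetases, which charge tRNAs, 7 were lower and 1 higher. Cars, for cysteine, differed by -0.75, -1.96 and -0.98, Yars, for tyrosine, by -0.25, -1.26 and -0.53, and Gars, for glycine, by -0.32, -0.51 and -0.51. Of 11 amino acid transporters 4 were lower. Slc6a9, a glycine carrier, was at 7.89, 7.72 and 7.35 before and 6.61, 6.76 and 6.48 after ADR (adjusted p = 0.208), and Slc1a4, a carrier of neutral amino acids, differed by -0.79, -0.92 and -1.07. The transporter heavy chain Slc3a2 and its partner Slc7a5 had -0.52 ± 0.17 and -0.54 ± 0.20. The medians of the 3 lists were -0.28, -0.36 and -0.35. Without lymphoma 4936, 7, 3 and 2 genes were lower at an unadjusted p under 0.05 (1.96% of all genes). All of these genes were among those lower with it.

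Atf4 itself was at 11.76, 11.74 and 11.36 before and 11.07, 11.23 and 10.79 after ADR, a difference of -0.59 ± 0.19. Its targets Trib3, a pseudokinase that restrains ATF4, and Chac1, which breaks down glutathione, differed by -1.65, -1.60 and -2.48 and by -1.95, -0.65 and -2.08. Ddit3, which encodes CHOP, had 0.44, -1.53 and -0.85, and Atf3 had -0.83, 1.37 and 0.53. With 4-OHT added, Cth, Aldh18a1, Gpt2 and Slc6a9 lay within 0.34 of ADR alone, and in the ADR outgrowth they lay 0.57, 0.80, 0.82 and 0.32 above it.

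The C/EBP-ATF response element, the DNA element to which ATF4 binds with C/EBP partners, is shown for 5 of these genes because their promoters share its letters. RefSeq promoter windows on GRCm38.p6, 250 bases before to 50 after each gene start, were searched for TGATGNAA on both strands, and 3.97% of 32851 windows held it. Counted by gene, with a match in any of its windows, the share was 4.51% of 27025 genes. By the same count the letters were found for 5 of the 13 tRNA synthetases with a window, 3 of 9 transporters and 3 of 19 synthesis enzymes. They were also found for 6 of 29 members of a list of ER and ATF4 stress genes, which shares members with the others. Each stretch of 100 bases reads 5′ to 3′ on the strand of the gene, with the element in capitals, as its reverse complement where it lies on the opposite strand.

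Asns, chr6:7693210-7693309, minus strand: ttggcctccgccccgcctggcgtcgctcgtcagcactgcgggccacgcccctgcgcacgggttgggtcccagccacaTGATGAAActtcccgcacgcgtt
Trib3, chr2:152344039-152344138, minus strand: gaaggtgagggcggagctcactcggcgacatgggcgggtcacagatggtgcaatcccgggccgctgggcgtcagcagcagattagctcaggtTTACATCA
Chac1, chr2:119351003-119351102, plus strand: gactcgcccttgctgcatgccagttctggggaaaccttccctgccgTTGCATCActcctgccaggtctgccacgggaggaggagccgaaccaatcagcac
Slc1a4, chr11:20332710-20332809, minus strand: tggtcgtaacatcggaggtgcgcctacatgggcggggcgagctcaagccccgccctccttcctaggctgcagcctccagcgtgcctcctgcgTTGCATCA
Yars, chr4:129189814-129189913, plus strand: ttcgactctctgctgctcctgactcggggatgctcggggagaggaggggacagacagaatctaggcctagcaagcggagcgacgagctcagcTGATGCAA

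The element started 23 bases before the gene start in Asns and 4 bases before it in Slc1a4. A match of letters is a description and shows no binding. The lower genes with a window included members with and without the letters: of those at an unadjusted p under 0.05, 1 of 7 synthesis enzymes, 3 of 5 tRNA synthetases and 1 of 3 transporters held them. Members that held them outside the lower genes numbered 2, 2 and 2.

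**Figure D4:**
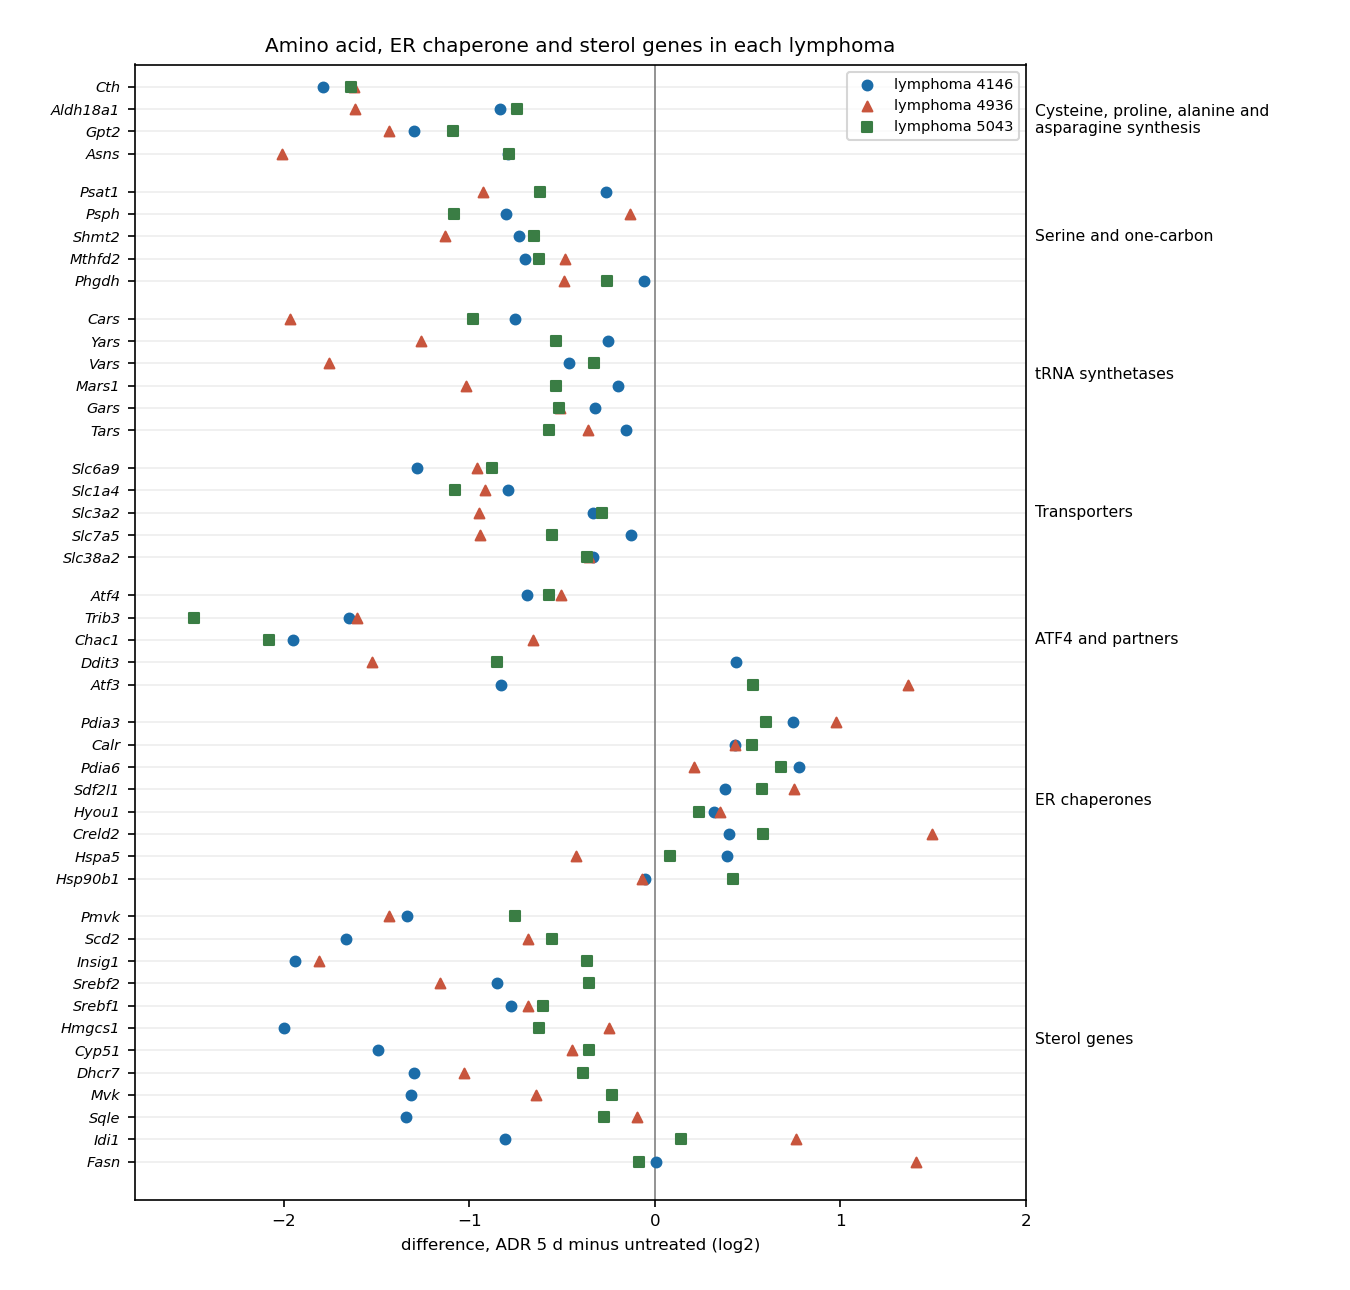
Difference between ADR 5 d and untreated cells in log2 units (horizontal axis) for amino acid, endoplasmic reticulum (ER) chaperone and sterol genes (rows), 1 point per lymphoma. Rows were picked from the lists with their values known, so they do not show the share of list members that lay lower. Nearly all amino acid and sterol points shown lie left of 0, and chaperones such as Pdia3 and Calr lie right of it in all 3 lymphomas. Ddit3, Atf3, Hspa5, Hsp90b1, Idi1 and Fasn have points on both sides.

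Chaperones of the endoplasmic reticulum lay on the other side. The list of ER and ATF4 stress genes thus split, with 6 of 31 genes higher and 6 lower at an unadjusted p under 0.05. Its median was 0.10, and among all genes tested 5.96% were higher and 5.37% lower. Pdia3, a disulfide isomerase that folds glycoproteins, was at 11.48, 11.04 and 11.34 before and 12.23, 12.02 and 11.94 after ADR, without overlap, a difference of 0.78 ± 0.16 (adjusted p = 0.239). Calr, the lectin chaperone calreticulin, differed by 0.43, 0.43 and 0.52, and Pdia6 by 0.78, 0.21 and 0.68. Sdf2l1, Hyou1 and Creld2, further folding factors, differed by 0.57 ± 0.17, 0.30 ± 0.14 and 0.83 ± 0.37. Hspa5, the chaperone BiP, had 0.39, -0.43 and 0.08, and Hsp90b1 had -0.05, -0.07 and 0.42, with differences of both signs. Of the 6 lower genes, Atf4, Trib3, Chac1, Asns, Psat1 and Slc3a2 all belong to the ATF4 arm described above. Without lymphoma 4936, 5 genes of the list were higher and 4 lower at an unadjusted p under 0.05 (2.12% and 1.96% of all genes).

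The ER stress response element was shared by 3 of the higher chaperone genes, which is why their promoters are shown. The letters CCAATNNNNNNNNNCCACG were searched on both strands of the same windows. Counted by gene, they were held by 0.137% of 27025 genes with a window and by 7 of 29 of this list, all of them outside the 6 lower genes. Of the 5 higher genes with a window 3 held them, and Pdia3 and Sdf2l1 did not. The rest of the 7 lay outside the genes higher at an unadjusted p under 0.05. In Calr and Creld2 the element lies on the opposite strand, and it holds within itself the letters CCAAT, which 37.4% of all windows hold.

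Calr, chr8:84847035-84847134, minus strand: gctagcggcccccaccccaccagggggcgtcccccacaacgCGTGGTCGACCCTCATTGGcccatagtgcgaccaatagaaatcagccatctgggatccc
Pdia6, chr12:17266450-17266549, plus strand: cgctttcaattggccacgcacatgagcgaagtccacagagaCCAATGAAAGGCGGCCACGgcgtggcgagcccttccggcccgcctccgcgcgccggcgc
Creld2, chr15:88819479-88819578, plus strand: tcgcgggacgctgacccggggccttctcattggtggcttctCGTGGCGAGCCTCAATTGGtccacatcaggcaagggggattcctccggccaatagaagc

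Sterol and lipid synthesis genes lay lower as a group. Of 24 genes, 11 were lower and none higher at an unadjusted p under 0.05 (5.37% and 5.96% of all genes). In all 3 lymphomas 17 were lower (19.5% of all genes), and the median was -0.69. Lymphoma 4146 had the largest shift, with a median of -1.34 against -0.28 in 4936 and -0.36 in 5043. The mean level of the 24 genes in lymphomas 4146, 4936 and 5043 was 10.03, 9.03 and 9.34 before and 8.84, 8.82 and 8.94 after ADR. The untreated array of 4146 was thus the highest, while the treated levels lay close together. Without 4936, 10 were lower at an unadjusted p under 0.05 (1.96% of all genes), of which 7 were among the 11. Pmvk, a kinase of the mevalonate pathway, was at 9.39, 9.18 and 9.33 before and 8.05, 7.75 and 8.58 after ADR, a difference of -1.17 ± 0.27 (adjusted p = 0.291). Hmgcs1, which makes the HMG-CoA that feeds the pathway, differed by -0.96 ± 0.38. Cyp51 and Dhcr7, late enzymes of cholesterol synthesis, had -0.76 ± 0.31 and -0.90 ± 0.33, and Scd2, a fatty acid desaturase, had -1.66, -0.68 and -0.55. The regulators lay lower too: Srebf2, the master factor of sterol genes, by -0.85, -1.16 and -0.35, Srebf1 by -0.77, -0.68 and -0.60, and Insig1, which retains them in the endoplasmic reticulum, by -1.94, -1.81 and -0.37. Fasn, fatty acid synthase, had 0.00, 1.41 and -0.08 and Idi1 had -0.81, 0.76 and 0.14, and neither shared the direction. Insig1 was at 9.14, 8.94 and 9.76 with ADR+4-OHT, 1.10 ± 0.43 above ADR alone. Of the 24 genes, 7 were higher there at an unadjusted p under 0.05 and none lower (4.93% and 7.6% of all genes tested). Plin2, a coat protein of lipid droplets, which was chosen after its values were seen, had differences of 1.84, 2.64 and 1.09.

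Other genes with a small p fell outside these lists. Ptpn2, a tyrosine phosphatase that restrains JAK signalling, was at 10.90, 10.91 and 10.81 before and 10.06, 10.12 and 10.09 after ADR, without overlap, although its 3 detected probe sets ranged from -0.78 to 0.61. Dvl1, a relay protein of Wnt signalling, was at 8.70, 8.81 and 8.59 before and 6.22, 7.01 and 7.38 after. Its 2 detected probe sets ranged from -1.83 to -0.47. Mib2, a ubiquitin ligase, differed by -1.20, -1.90 and -0.99. Pank4, Spice1, a centriole protein, and Pex6, a peroxisomal ATPase, differed by -0.96 ± 0.19, -0.69 ± 0.14 and -0.64 ± 0.13. On the higher side Med22, a Mediator subunit, was at 8.35 to 8.40 in untreated and 8.91 to 9.17 in treated cells. Cox6a2, a muscle-type subunit of cytochrome oxidase, had differences of -1.81, -5.13 and -1.69, and Tspoap1 had -2.35, -2.49 and -1.72.

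In 3 further lists the share of members with an unadjusted p under 0.05 lay near that of all genes (5.96% higher, 5.37% lower) or rested on few genes. Of 32 lysosome genes 4 were higher and 2 lower, and without lymphoma 4936 2 and 1. Lamp1, a lysosomal membrane protein, was 0.42, 1.39 and 0.73 higher, and Ctsl, a protease, 2.58, 3.49 and 0.63 higher. In contrast Naglu, which degrades heparan sulfate, differed by -0.81, -0.96 and -0.96. Of 28 interferon response genes, 2 were higher, and the median was 0.60, 0.36 and 0.08 by lymphoma. Among 34 heterochromatin and chromatin-modifier genes, Ehmt1, a histone H3 methyltransferase, Cbx5, which encodes the heterochromatin protein HP1 alpha, and H2ax lay lower and Hmga2 higher, with a median of -0.14. Ehmt1 was at 9.75 to 9.89 before and 9.37 to 9.41 after ADR, and Cbx5 at 9.80 to 9.96 and 9.31 to 9.50. Lmnb1, a lamin used as a marker of senescence, had 0.19, -0.03 and -0.25.

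**Figure D5:**
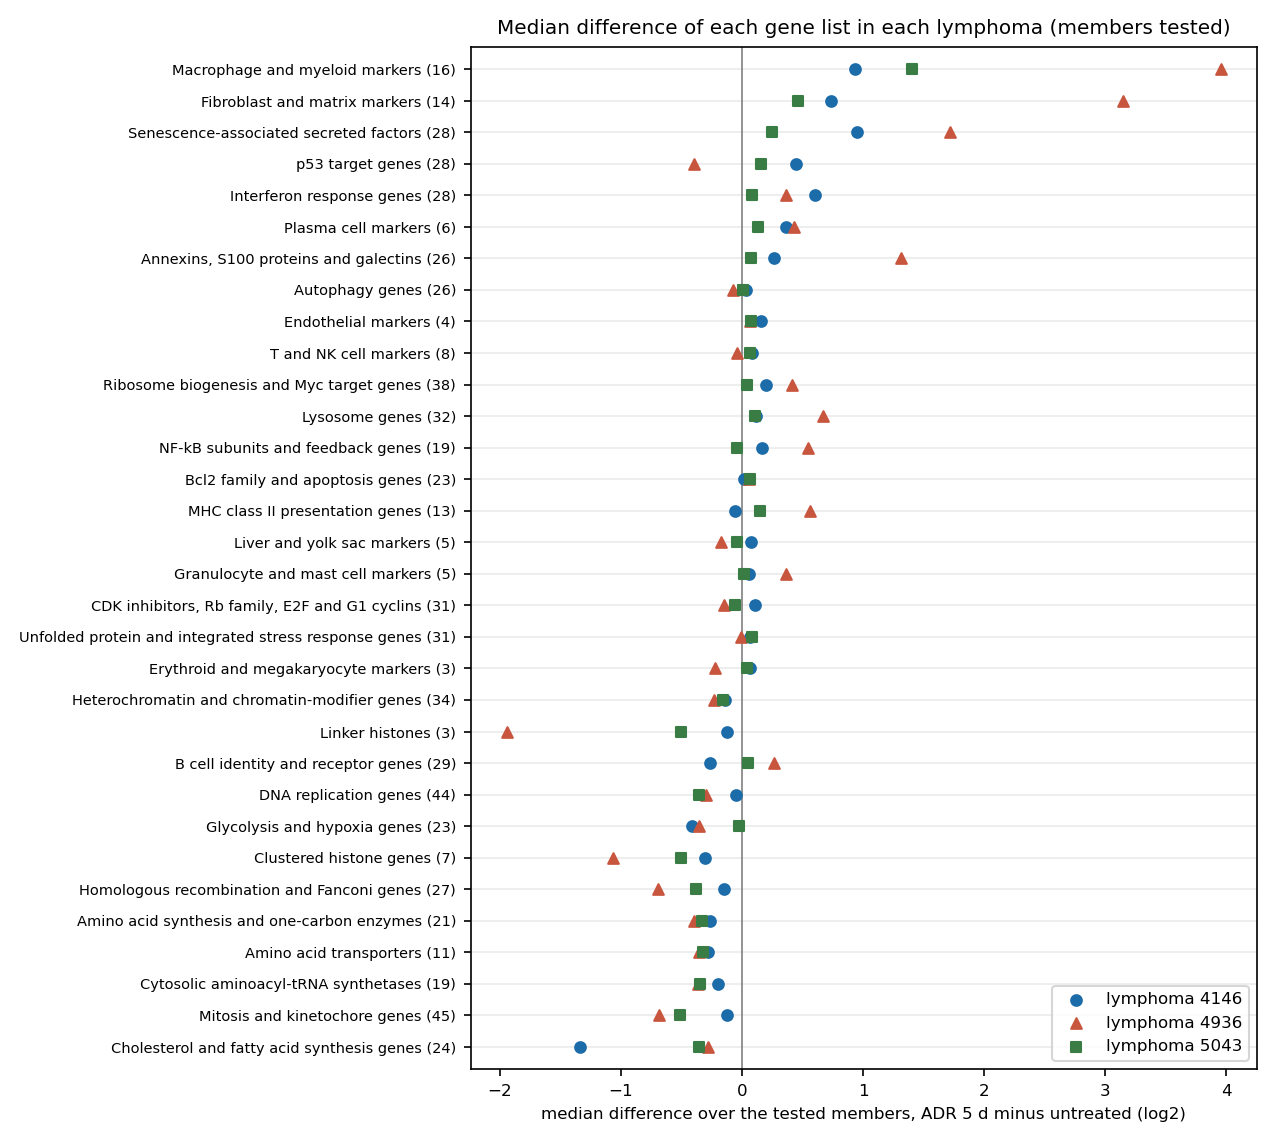
Median difference between ADR 5 d and untreated cells in log2 units (horizontal axis) over the tested members of 32 gene lists (rows, with the number tested), 1 point per lymphoma. The macrophage, fibroblast and secreted factor lists lie to the right with lymphoma 4936 farthest, and the sterol list is the lowest of lymphoma 4146. In the macrophage, fibroblast and secreted factor rows, members that were dim on nearly all arrays are left out by the filter on low values, so these medians are higher than those over all members.

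In the remaining lists few members had an unadjusted p under 0.05, and the shares of all genes are 5.96% higher and 5.37% lower. B cell genes had 2 of 29 lower, Cd22, an inhibitory receptor, and Tcf3, and none higher. Apoptosis genes had none of 23 in either direction. Ribosome biogenesis and Myc target genes had 1 higher and 1 lower of 38, with 19 higher in all 3 lymphomas (21.8% of all genes) and a median of 0.22. Glycolysis and hypoxia genes had 3 of 23 lower (Pfkp, Aldoa and Pkm), with 9 lower in all 3 lymphomas (19.5% of all genes) and a median of -0.23. Autophagy genes had 1 higher and 1 lower of 26 and NF-kB genes 1 higher of 19. MHC class II genes had 2 lower of 13, H2-Oa and H2-Ob, with a median of 0.21.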

How the data were processed

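Total RNA of 18 samples was labelled and hybridised to Affymetrix Mouse 430 2.0 arrays, per the labels. The authors deposited log2 values, for which the submitters' processing notes name RMA and Partek, with no version. Of 45101 probe sets, 34958 carried 1 gene symbol, 932 several and 9211 were not listed, and names came from the platform annotation. Within each probe set the median over the arrays of a lymphoma was the same in all 3 lymphomas to within 1e-06. Offsets between the lymphomas were therefore absent from the deposited values, through a step that the sources used here do not state. Differences within a lymphoma keep their size, but ranges across lymphomas and the overlap of groups depend on that step. The analysis used the 17 arrays that hold values, without an ADR outgrowth of lymphoma 5043.

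For each of 18194 genes the probe set brightest on average over these arrays was kept, and 11897 genes with at least 4.86 on at least 3 arrays were tested. The model (limma 3.58.1 in R 4.3.3) held 6 groups and the lymphoma as a block, over all arrays, with 9 residual degrees of freedom. The block follows the lymphoma number in the labels, which names the shared source of the cells. Benjamini-Hochberg adjustment ran over all genes tested, with a threshold of 0.05. The model was tested on simulated data. Alternatives were other filters, probe set rules, normalisations, variance models, array weights and left-out arrays.

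The comparison, gene lists and motifs were chosen with earlier results of these data known, and 5 of the 32 lists after values were seen. Named genes were Bcl2, Myc, Cdkn1a and Cdkn2a, the 12 higher and 12 lower genes with the smallest p and 1 sign in all lymphomas, the 6 and 6 with the largest smallest difference, up to 5 of each list by p, and the 6 with the largest difference in lymphoma 4936. Further members were chosen after their values were seen.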

Additional observations from a re-analysis of the deposited data

How the results depend on the processing

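No gene passed at an adjusted p under 0.05 (limma) in the comparison of ADR 5 d with untreated cells. Without the lymphoma as a replicate block 1 gene, H1f4, passed, and 13 passed for ADR+4-OHT against ADR. Array quality weights gave 10 and 521 genes in these comparisons when estimated gene by gene, and 18 and 1099 by REML, which did not converge; the gene-by-gene estimate was chosen after the REML counts were seen. The ADR array of lymphoma 4936 had a weight of 0.402. The count with an unadjusted p under 0.05, 1348, became 2463 with every probe set on its own, 2111 with REML weights, 808 with a gene-by-gene paired test and 597 without the 3 arrays that stand apart. Leaving out a lymphoma or an array gave 0 to 3 genes past the adjusted threshold and 485 to 2072 at the unadjusted one. The lowest count came without lymphoma 4936, and leaving out only its ADR or only its untreated array gave 572 and 615. The highest came without the ADR array of 5043, with 1 gene passing. Without either ADR outgrowth array 3 passed. For ADR+4-OHT and for the ADR outgrowth against ADR, 0 genes passed without any lymphoma. The Ptpn2 difference was 0.062 as the mean over its probe sets. For 21 named genes whose sign differed between lymphomas, a treatment decided after values were seen gave no direction; their mean changed sign 60 times over the alternatives, in 18 of them. The medians of 9 lists, those of autophagy, B cell, cell cycle regulator, p53 target, ER and ATF4 stress, erythroid, granulocyte, liver and T cell genes, changed sign in at least 1 alternative.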

Other observations

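Further regulators of the cell cycle had an unadjusted p under 0.05 without passing over all genes. Foxm1, a factor that drives mitotic genes, had differences of -0.24, -0.63 and -0.34 in lymphomas 4146, 4936 and 5043. Cdkn1b, the p27 inhibitor, had -0.61, -1.39 and -0.44, and E2f2 had -0.85, -0.96 and -0.06. E2f3 lay on the other side with 0.68, 1.41 and 0.11. In the autophagy list Gabarapl2, which coats autophagosomes, had 0.67, 0.98 and 0.22, and Atg9a, which supplies their membrane, had -0.70, -0.48 and -0.40. Irf9, a factor that relays interferon signals, was at 6.06, 5.77 and 5.98 before and 6.87, 8.07 and 6.60 after ADR.

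Some genes were high on the ADR array of lymphoma 4936 and not on those of the other lymphomas. Tmed6, a cargo receptor, was at 3.47, 12.90 and 2.04 after ADR, and Tmem255a at 4.09, 12.88 and 4.20. Ms4a1, which encodes the B cell protein CD20, was at 5.20 in 4146, 12.26 in 4936 and 4.96 in 5043. The mean level of 10 liver and yolk sac markers was 4.86, 5.60 and 4.64 after ADR and 4.69, 4.71 and 4.64 before. Granulocyte markers had 4.04, 3.94 and 4.01 before and 4.01, 4.48 and 4.22 after, erythroid markers 4.53, 4.47 and 4.42 before and 4.52, 4.81 and 4.44 after, and plasma cell markers 7.73, 7.94 and 7.99 before and 8.21, 8.69 and 8.08 after.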
